A study of Mus musculus with 10 samples.

Results

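The 45 genes described here encode the enzymes and scaffold proteins of DNA replication. They were listed by name and function, with earlier results of these data known, and no measured value enters the rule. All 45 were found among the 21938 protein-coding genes of the mm10 annotation (GENCODE M21). Every gene was described by the open chromatin and H3K4me3 peaks within 1 kb of any of its annotated start sites, called its promoter below, and by the open sites that lay over 1 kb from every annotated start site but inside the gene or within 20 kb of it, called distal sites.

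The cells were primary neural stem and progenitor cells (NSPCs) of C57BL/6 mice at postnatal day 5, grown as early-passage cultures. Activated NSPCs proliferated in FGF2 and EGF at 20 ng/ml each. Quiescent NSPCs were held in FGF2 at 20 ng/ml with BMP4 at 25 ng/ml and no EGF, for 4 days by the labels, whereas the study's methods give a shorter time for the cells used for ATAC-seq. Reactivated NSPCs spent 4 days in BMP4 and then 9 to 12 days back in growth medium. No genotype was altered, and such cultures mix stem cells with progenitors. ATAC-seq, which cuts and tags accessible DNA with a transposase, was done on 2 libraries per state, which the study calls biologically independent. ChIP-seq for H3K4me3, a histone mark of active and poised promoters, was done on 1 library each of quiescent and activated cells.

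The ATAC-seq lists held 47323 to 60881 peaks in the quiescent and activated libraries, and 106586 and 107137 in the reactivated libraries. The background pileup recovered from the peak statistics was 12.1 fragments in quiescent replicate 2 and 6.01 to 6.61 in the other libraries, so quiescent replicate 2 was the deepest. Peak names of both reactivated libraries record a downsampling step that the other names lack, so the reactivated state and that step cannot be told apart. The neural stem and progenitor markers Sox2, Nes, Pax6, Fabp7 and Vim had a promoter peak in all 6 libraries. No library had a promoter peak at the oligodendrocyte genes Mog and Mag, the neuroblast gene Dcx, the microglial genes Csf1r, Aif1 and Ptprc, or the endothelial genes Cdh5 and Cldn5. Of the whole lists, 1 of 5 astrocyte, 0 of 4 oligodendrocyte, 3 of 5 neuron, 0 of 5 microglia and 0 of 4 endothelial markers had a peak in all 6 libraries. The neuron markers were Map2, Tubb3 and Snap25. Tubb3 had 3.24 and 3.44 in the quiescent pair, 4.25 and 4.66 in the activated pair, and 6.65 and 8.3 in the reactivated pair. At Map2 and Snap25 the quiescent and activated values overlapped. Rbfox3 had a peak in activated replicate 1 and both reactivated libraries, and the oligodendrocyte gene Mbp in quiescent replicate 2 and both reactivated libraries. Library by library, the astrocyte list had a peak at 4 and 3 of its 5 genes in the quiescent pair, 3 and 2 in the activated pair, and 5 and 4 in the reactivated pair, and its genes did not move one way. Slc1a3 had no peak in activated cells and S100b was lower there than in quiescent cells, whereas Aldh1l1 had 7.15 and 6.73 in the quiescent pair against 9.46 and 7.61 in the activated pair, Gfap had a peak in both activated libraries and 1 quiescent one, and Aqp4 had peaks in reactivated cells only. In the microglial list 1 of 5 genes had a peak in each library, which was Cx3cr1 in quiescent replicate 1 and P2ry12 in the others. P2ry12 had 2.06 in quiescent replicate 2, 6.23 and 4.42 in the activated pair, and 9.61 and 9.58 in the reactivated pair. The endothelial list had 0 and 1 of 4 in the quiescent pair, 2 and 1 in the activated pair, and 2 and 1 in the reactivated pair, from Kdr and Pecam1. Kdr had 2.60 in quiescent replicate 2, 4.91 and 3.99 in the activated pair, and 9.58 and 7.30 in the reactivated pair. P2ry12, Kdr and Tubb3 thus rose from quiescent to activated to reactivated cells before centring. The part of these markers in the results below was not tested.

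DNA replication is licensed when the origin recognition complex, with Cdc6 and Cdt1, loads the Mcm2 to Mcm7 helicase on DNA in G1 phase. In S phase Cdc45 and the GINS proteins turn the loaded helicase into an active one, and primase, the replicative polymerases, the Pcna clamp with its Rfc loader and the single-strand binding protein RPA copy the DNA. Many genes of this pathway are known targets of E2F transcription factors, which the Rb family holds back in quiescent cells. Transcription of such targets is generally low in resting cells and high in cycling ones. Transcription was not measured in the libraries described here.

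The promoter sequences are shown first, since most ATAC-seq summits fell within 200 bp of an annotated (GENCODE) start. RefSeq promoters (GRCm38.p6, 250 bases before to 50 after a start) were matched to 37 of the 45 genes. Gmnn, Mcm4, Gins1, Gins2, Gins4, Prim2, Pole and Rfc2 were not matched. The median summit fell outside the matched RefSeq window at Orc2, Cdc6, Cdc45, Fen1, Ung and Tk1. The stretches that follow each hold the 150 bases before the RefSeq start, read 5′ to 3′ on the gene's strand. Orc1, Orc3, Mcm6 and Gins3 hold E2F words here, Rrm2 is the gene that differed between quiescent and activated cells, and Rpa3 had the strongest promoter peaks. Capitals mark an E2F word or a CCAAT box on either strand.

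Orc1, chr4:108579304-108579453, plus strand: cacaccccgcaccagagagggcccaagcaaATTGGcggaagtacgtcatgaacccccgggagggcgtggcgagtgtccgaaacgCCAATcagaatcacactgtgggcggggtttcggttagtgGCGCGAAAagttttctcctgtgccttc

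Orc3, chr4:34614943-34615092, minus strand: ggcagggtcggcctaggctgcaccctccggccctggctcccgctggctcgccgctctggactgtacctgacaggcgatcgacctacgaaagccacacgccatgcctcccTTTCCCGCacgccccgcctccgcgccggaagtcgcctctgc

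Mcm6, chr1:128359706-128359855, minus strand: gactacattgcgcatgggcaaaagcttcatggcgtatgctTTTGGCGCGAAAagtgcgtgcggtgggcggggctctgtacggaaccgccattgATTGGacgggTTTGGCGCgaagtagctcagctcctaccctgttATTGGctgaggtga

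Gins3, chr8:95633409-95633558, plus strand: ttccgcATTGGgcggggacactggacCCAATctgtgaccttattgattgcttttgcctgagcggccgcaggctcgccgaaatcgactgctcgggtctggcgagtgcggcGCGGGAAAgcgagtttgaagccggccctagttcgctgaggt

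Rrm2, chr12:24708104-24708253, plus strand: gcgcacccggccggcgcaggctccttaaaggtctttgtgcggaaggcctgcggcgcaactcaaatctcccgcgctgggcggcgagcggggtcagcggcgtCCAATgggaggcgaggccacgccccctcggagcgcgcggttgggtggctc

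Rpa3, chr6:8259142-8259291, minus strand: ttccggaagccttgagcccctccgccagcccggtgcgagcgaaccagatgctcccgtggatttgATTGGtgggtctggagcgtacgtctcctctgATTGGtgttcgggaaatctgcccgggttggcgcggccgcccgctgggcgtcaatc

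In these stretches the E2F words began 27 bases before the start in Orc1, 41 in Orc3 and Gins3, and 110 and 47 in Mcm6. The first Mcm6 word runs into an overlapping word on the other strand, and overlapping words were counted once. Of the 37 promoters, 13 (35.1%) held at least 1 of the 4 E2F words searched on both strands (TTTGGCGC, TTTCCCGC, TTTGCCGC and TTTCGCGC). The same words were in 2.26% of all 32851 RefSeq promoters of this length and in 4.57% of the 9186 matched promoters of coding genes with an ATAC-seq peak in all 6 libraries. Among the 13 were the helicase subunit genes Mcm3, Mcm5, Mcm6 and Mcm7, the licensing genes Cdc6 and Cdt1, and Orc1, Orc3 and Gins3. At Cdc6 the word began at -138 and the median summit lay at -430 from the RefSeq start. The others were the polymerase genes Pold1 and Pole2, the clamp loader gene Rfc3 and Lig1, which encodes the ligase that seals Okazaki fragments.

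The CCAAT box, which NF-Y binds, was in 22 of the 37 promoters (59.5%), against 37.4% of all RefSeq promoters and 40.4% of those open in all 6 libraries. The GC box, GGGCGG, was in 28 (75.7%), against 35.7% and 69.1%. The CHR word, TTTGAA, which is an element of many late cell cycle genes, was in 4 (10.8%), against 17.9% and 10.7%. The CRE word, TGACGTCA, was in 2 (5.41%), against 1.79% and 3.68%, and the TATA word, TATAAA, was in 2 as well, against 13.6% and 5.70%. These are matches of letters in the reference and were not measured as bound sites. The 13 promoters with an E2F word had a median quiescent-minus-activated difference in log2 fold enrichment of 0.03, and the 23 tested promoters without one had 0.01.

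Replication promoters were open in every state (plot of promoter values by library). A promoter ATAC-seq peak was present in both quiescent libraries at 45 of 45 genes, where 55.6% of all coding genes had one. The count was 44 of 45 in activated cells (55.9% of coding genes) and 45 of 45 in reactivated cells (65.1%). All 6 libraries had a peak at 44 of the 45 (53.2%). In single libraries the share of all coding genes with a peak was 57.4% and 58.7% in quiescent replicates 1 and 2, 59% and 57.3% in activated, and 66.6% and 66.4% in reactivated cells. Fewer cells with an open site and less opening per cell cannot be told apart in such bulk libraries. Of 46 other replication genes, among them the polymerase alpha subunit Pola1, the origin-firing kinase Cdc7 and the topoisomerase Top2a, 43 had a promoter peak in quiescent cells, 44 in activated cells and 46 in reactivated cells. A state was counted only where both of its libraries had a peak. Neither quiescent library had one at Atad5 and Rnaseh2c, and Pola2 had one of 4.89 in quiescent replicate 2 only.

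The exception among the 45 was Prim1 (chr10:128015168-128030037, plus strand), the catalytic subunit of primase, which lays down the RNA primers of each new strand. Its fold enrichment, which is the fragment pileup at the peak summit over the local background as the peak caller gives it, came to 3.81 and 4.13 in quiescent replicates 1 and 2. It was 5.97 in activated replicate 1, with no peak called in activated replicate 2, and 8.67 and 7.05 in the reactivated libraries. Within the lists its percentile ran from 42.2 in quiescent replicate 1 to 80.1 in reactivated replicate 1. Prim1 was left out of the tests below because they need a value in all 6 libraries.

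**Figure D1:**
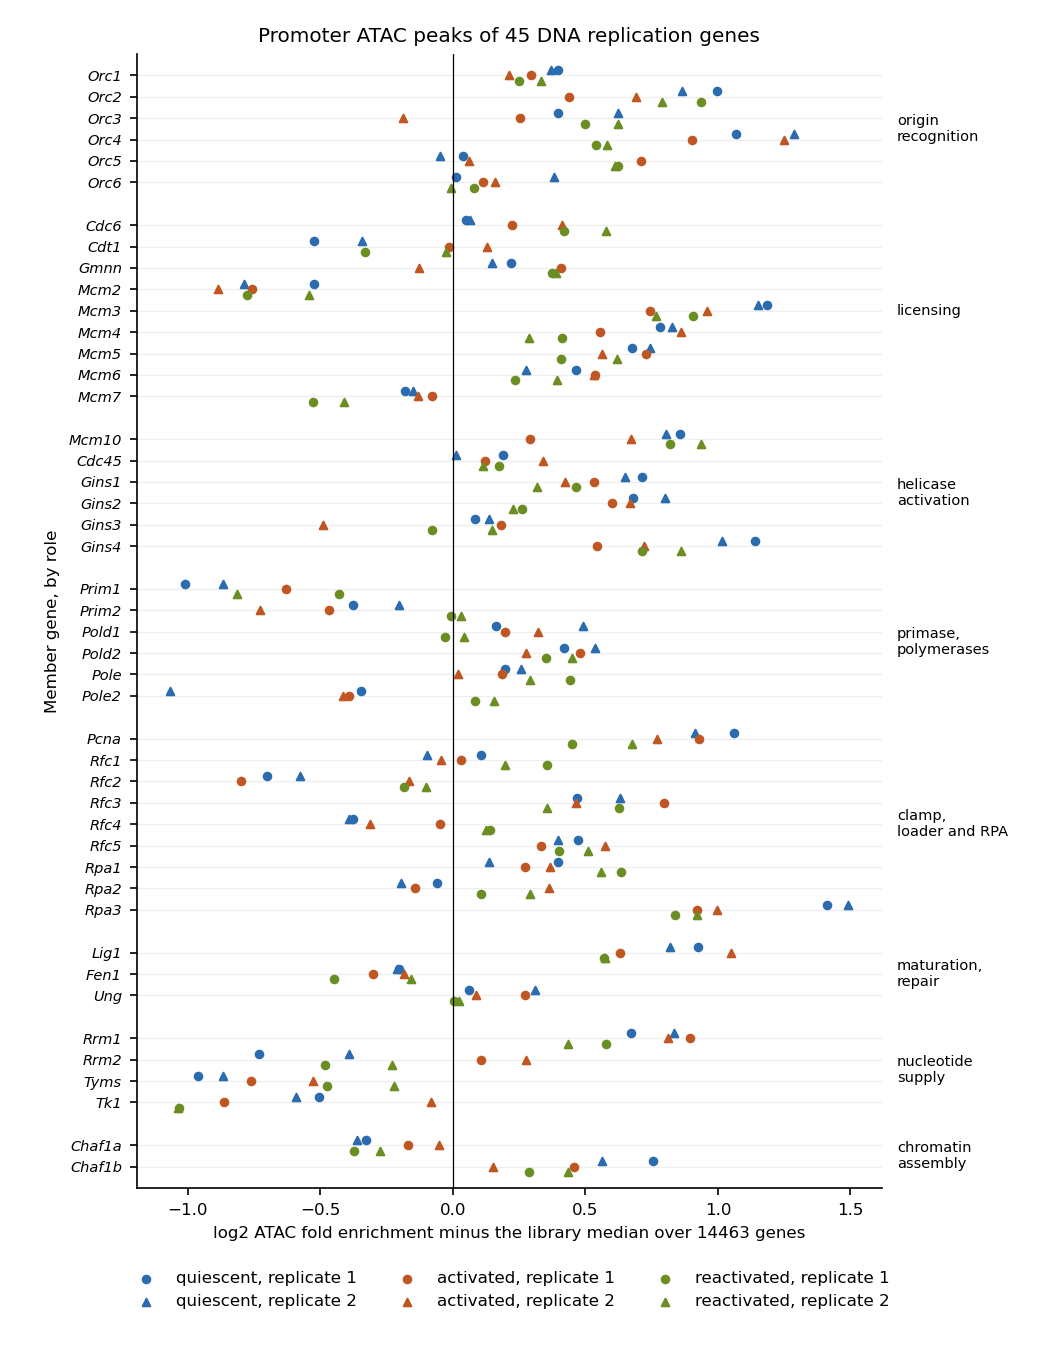
Promoter ATAC-seq of the 45 replication genes, with log2 fold enrichment minus the median of its library over 14463 genes on the horizontal axis and genes in order of role on the vertical axis; each point is 1 library. Rpa3, Mcm3 and Orc4 lie to the right in most libraries, Prim1, Mcm2 and Tyms to the left, and Rrm2 has both quiescent points to the left of both activated points.

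The promoters were also strongly open. Ranked within its own list, the mean peak of a replication promoter over the 6 libraries stood at a median percentile of 92.4. For all 14463 annotated genes with a peak in all 6, of which 11663 were protein-coding, it was 86.2. For the 42 other replication genes with a peak in all 6 it was 89.6. The peak summits rested on pileups of at least 28 to 275 fragments, with a median of 91. The highest mean percentile, 99.8, belonged to Rpa3 (chr6:8255936-8259173, minus strand), the smallest subunit of RPA. The values were 20.4 and 21.1 in the quiescent pair, 17.5 and 15.6 in the activated pair, and 20.9 and 23.5 in the reactivated pair. Both quiescent values exceeded both activated values. Mcm3, a helicase subunit, followed at percentile 99.6 with 17.5 and 16.7 in the quiescent pair, 15.5 and 15.2 in the activated pair, and 21.9 and 21.1 in the reactivated pair. Orc4, an ATP-binding subunit of the origin recognition complex, was at 99.4.

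The lowest mean percentiles were those of Prim1 (64.4), Mcm2 (64.9) and Tyms (66.4). Mcm2, another subunit of the helicase, had 5.34 and 4.35 in the quiescent pair, 5.45 and 4.23 in the activated pair, and 6.83 and 8.52 in the reactivated pair. The quiescent and activated values of Mcm2 overlapped. Genes of the same helicase thus sat far apart in this ranking, with a mean fold enrichment over the 6 libraries of 18.0 at Mcm3 and 5.79 at Mcm2.

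By role, the median of the mean percentiles was highest for helicase activation (96.7; Mcm10, Cdc45 and Gins1 to Gins4) and for clamp, loader and RPA (94.3). It was 93.0 for the origin recognition complex and 92.6 for licensing. Primase and polymerases stood at 84.5 and nucleotide supply (Rrm1, Rrm2, Tyms and Tk1) was lowest at 73.8. Fold enrichment over all members and libraries ran from 3.59 at Pole2 in quiescent replicate 2 to 23.8 at Mcm10 in reactivated replicate 2.

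Most replication promoters opened at the same place in each state (plot of summit positions). Of the 269 strongest peaks over the genes and libraries, 254 (94.4%) had their summit within 200 bp of an annotated start of the gene, at a median of 44 bp upstream. In 38 of the 45 genes the summits of all libraries fell within 100 bp of each other. The 12 summits over 500 bp away belonged to Gins1 and Tk1. At Tk1, the salvage thymidine kinase, the strongest peak lay a median of 1056.5 bp inside the gene, and at Gins1 its median position was -656.5 bp from the start, near a start site of Abhd12.

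**Figure D2:**
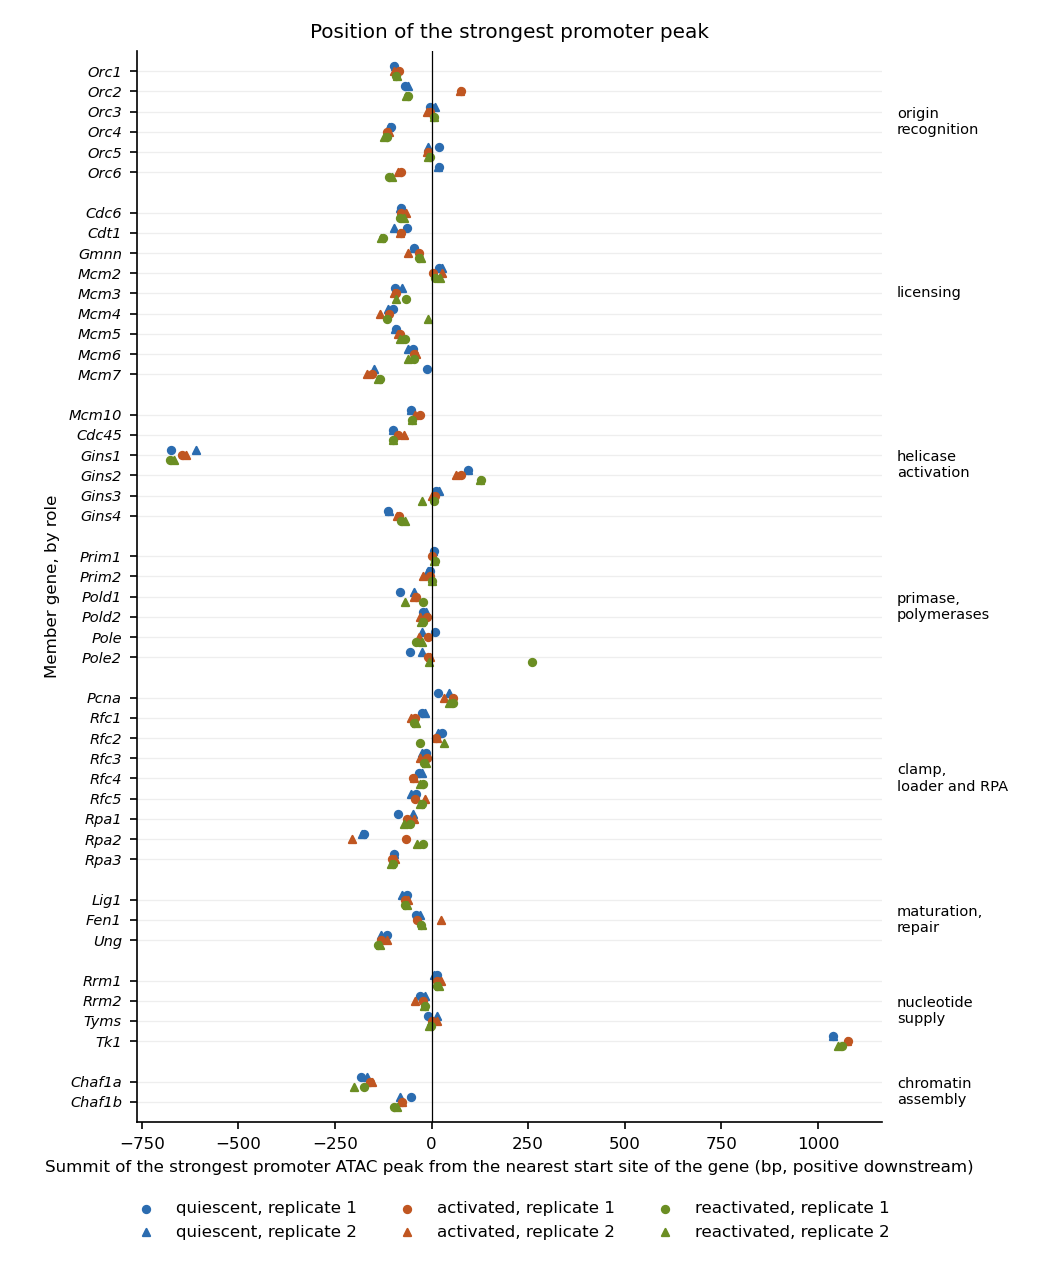
Distance in bp from the nearest annotated start of each gene to the summit of its strongest promoter ATAC-seq peak, positive downstream, with genes in order of role; each point is 1 library. Of 269 summits, 254 lie within 200 bp of a start, and those of Gins1 and Tk1 stand apart.

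In 14 of the 45 genes the strongest peak also lay within 1 kb of a start of another coding gene, so its value cannot be given to 1 of the genes alone. These pairs were Orc1 with Prpf38a, Orc3 with Rars2, Orc4 with Mbd5, Orc6 with Vps35, Mcm4 with Prkdc, Mcm7 with Ap4m1, Cdc45 with Ufd1, Gins1 with Abhd12, Pole with Pxmp2, Rpa1 with Smyd4, Rpa3 with Umad1 (and Gm45062), Lig1 with Zswim9, Fen1 with Tmem258 and Tk1 with Afmid.

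The first comparison asked which replication promoters differ in accessibility between quiescent and activated NSPCs. Of the 44 tested genes 1 was lower in quiescence and none was higher, against 1.62% of all genes lower and 0.823% higher, or 2.45% in either direction (limma on median-centred log2 fold enrichment, Benjamini-Hochberg adjustment over 14463 genes). At an unadjusted p under 0.05, limma listed 7 members (15.9%), against 18% of all genes. The median difference of the 44 was 0.04 on the log2 scale, against 0.03 over all genes tested. After centring, both quiescent values were below both activated values at 9 of the 44 genes (20.6% of all genes) and above them at 12 (25.9%). Quiescent replicate 2 and activated replicate 1 carry the same lane number in their peak names, and between these 2 libraries alone the median difference was 0.04 for the members and 0.04 for all genes.

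The gene that was lower was Rrm2 (chr12:24708241-24714146, plus strand), the small subunit of ribonucleotide reductase, which makes deoxyribonucleotides and whose amount limits the enzyme in S phase. In the quiescent pair of libraries its promoter had 4.64 and 5.73, in the activated pair 9.94 and 9.45, and in the reactivated pair 8.37 and 10.6. Before centring, the quiescent pair lay below all 4 other values, and the 2 libraries with the same lane number differed by -0.50 on the log2 scale after centring. The centred quiescent and reactivated values overlapped, and limma did not call Rrm2 between quiescent and reactivated cells. After centring, the quiescent level was 1.69-fold lower than the activated level, a log2 difference of -0.75 (SE 0.17, limma adjusted p = 0.0441, n = 2 against 2). The call was lost when any 1 of the 6 libraries was left out, where the difference ran from -0.58 to -0.92 and the adjusted p from 0.0678 to 0.199.

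The other genes of nucleotide supply had differences of -0.10 (Rrm1, the large subunit of the same enzyme), -0.27 (Tyms, thymidylate synthase) and -0.08 (Tk1), and none was called. Tyms had 3.94 and 4.13 in the quiescent pair, 5.44 and 5.42 in the activated pair, and 8.41 and 10.6 in the reactivated pair. Its quiescent pair was the lowest, but the SE of its difference from activated cells was 0.16 and limma did not call it.

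Among the licensing genes, Cdt1, which brings the helicase to origins, had the second largest difference below 0 of all members. The values were 5.34 and 5.93 in the quiescent pair, 9.14 and 8.54 in the activated pair, and 9.29 and 12.2 in the reactivated pair. The quiescent pair did not overlap the others, with a log2 difference from activated cells of -0.49 (SE 0.16, limma adjusted p = 0.137). The inhibitor of Cdt1, Gmnn (geminin), differed by 0.04 (SE 0.18), and the other licensing genes lay between -0.26 (Cdc6) and 0.32 (Mcm3).

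Rpa3 had the largest difference in the other direction, 0.49 (SE 0.14, limma adjusted p = 0.0989), from the values given above. In the origin recognition complex, Orc3 differed by 0.48 (SE 0.18) and Orc5 by -0.39 (SE 0.20), with limma adjusted p of 0.182 and 0.326. The 6 genes of helicase activation had a median of 0.23, with Gins4 at 0.45 (SE 0.15, limma adjusted p = 0.145). The SEs of the 44 differences ran from 0.14 to 0.22, which limits what 2 libraries a state can call.

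**Figure D3:**
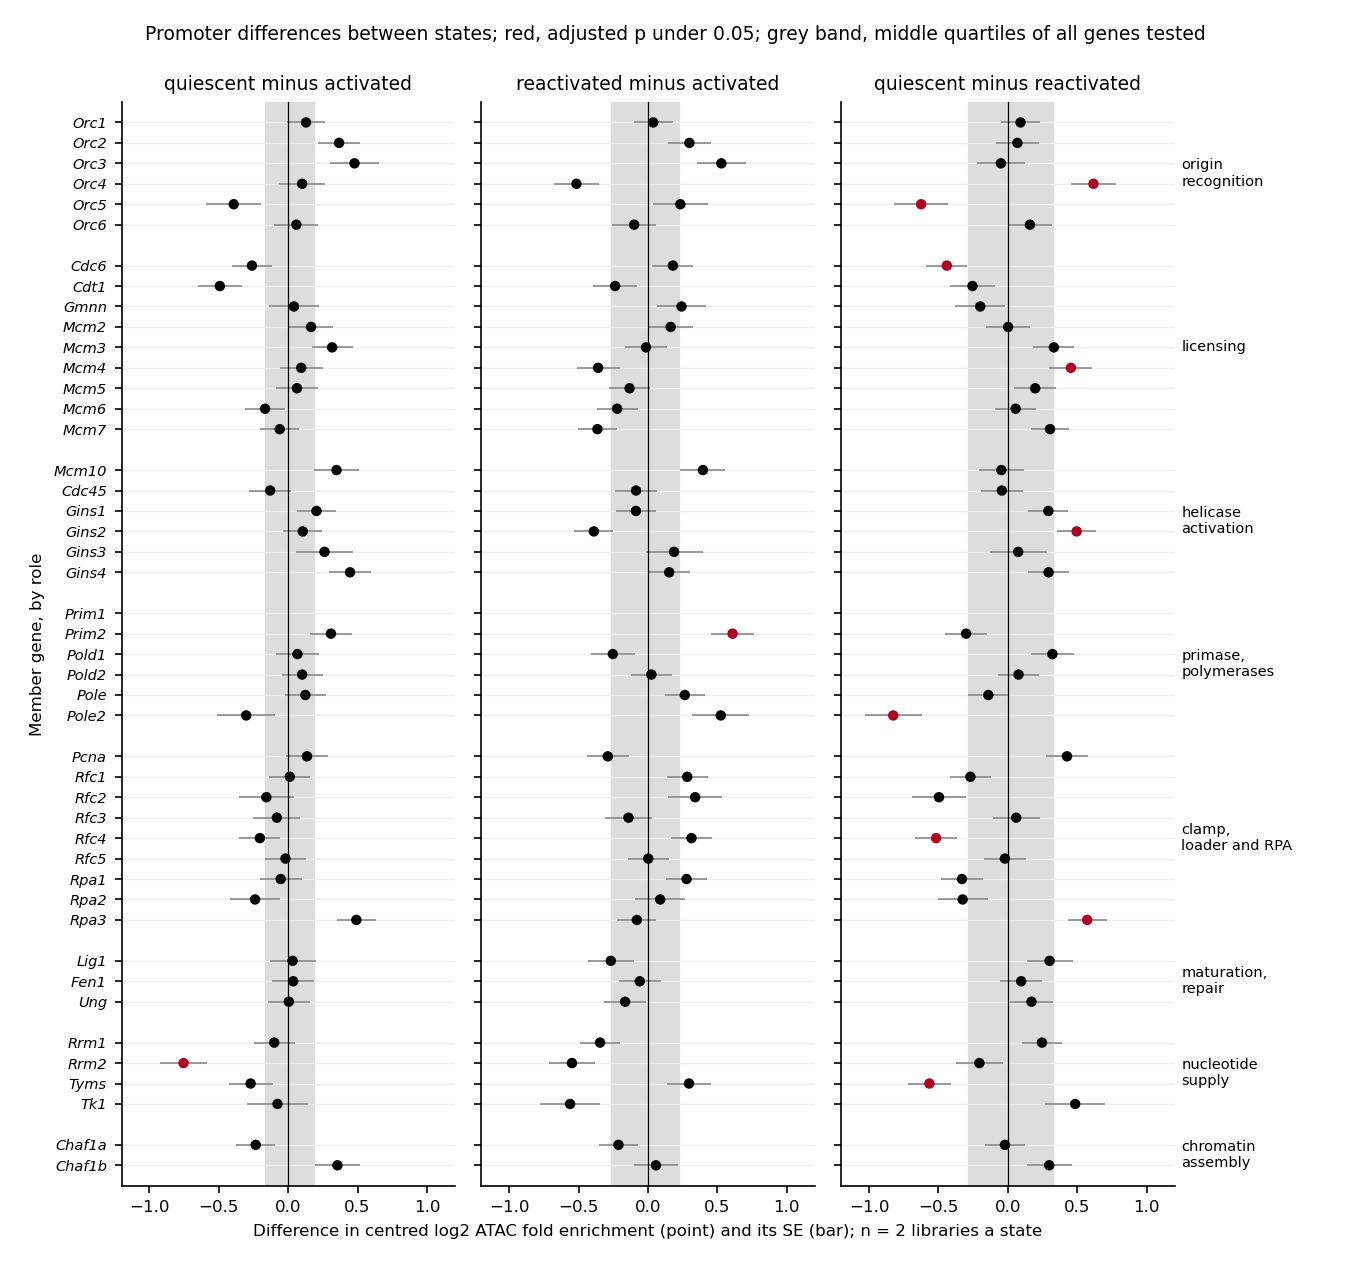
Difference in centred log2 ATAC-seq fold enrichment between each pair of states (points, with SE bars; 2 libraries a state) for 44 replication genes in order of role; red points passed an adjusted p of 0.05 and the grey band holds the middle quartiles of all 14463 genes. One gene is red for quiescent minus activated (Rrm2), 1 for reactivated minus activated (Prim2) and 9 for quiescent minus reactivated; Prim1 has no point.

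The second comparison asked whether cells returned to growth medium regain the promoter accessibility of activated cells. It shares the activated libraries with the first. One of the 44 genes was higher in reactivated cells and none was lower, against 7.07% and 5.8% of all genes (12.9% in either direction), and 11 members (25.0%) had an unadjusted p under 0.05 against 31.7%. The median difference of the members was -0.01, and -0.03 over all genes. After centring, both reactivated values were below both activated values at 15 members (34.9% of all genes) and above them at 11 (27.7%).

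The gene that was higher was Prim2 (chr1:33453810-33669795, minus strand), the large subunit of primase. Its fold enrichment was 11.6 and 12.7 in reactivated cells, 6.68 and 4.71 in activated cells, and 5.92 and 6.54 in quiescent cells. Both reactivated values were above all the others, and after centring they were 1.53-fold above the activated level (log2 0.61, SE 0.15, limma adjusted p = 0.0297). The call was lost without activated replicate 2 (log2 0.47, adjusted p = 0.131), reactivated replicate 1 (0.63, 0.163) or reactivated replicate 2 (0.59, 0.167).

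Rrm2 and Tk1 had the largest differences below 0. Rrm2 was -0.55 (SE 0.17, limma adjusted p = 0.0550), and its reactivated values were near the activated ones before centring. Tk1 was -0.56 (SE 0.22, adjusted p = 0.106), with 5.72 and 6.05 in the reactivated pair, 5.08 and 7.36 in the activated pair, and 5.42 and 4.98 in the quiescent pair. The reactivated and activated values of Tk1 overlapped before centring. Centring matters in this comparison because the typical promoter had a higher fold enrichment in reactivated libraries: it removed a shift of 0.51 (log2) for reactivated minus activated, -0.66 for quiescent minus reactivated and -0.16 for quiescent minus activated. Without it, 23 members were higher and none lower in reactivated than in activated cells, where 6850 of all 14463 genes were higher and 29 lower.

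The third comparison set quiescent against reactivated cells, which share a history of BMP4. It uses the libraries of the first 2 comparisons again. Of the 44 genes 5 were lower in quiescent cells and 4 were higher, against 13.1% and 14.3% of all genes, so members were called in 20.5% of cases where all genes were in 27.4%. After centring, the values did not overlap at 13 members that were lower in quiescence (31% of all genes) and 17 that were higher (38.9%). Without centring 29 members were lower and none was higher, where 9386 of the 14463 genes were lower and 24 higher. With quantile normalization 5 members were lower and 1 higher, against 1535 and 1715 of all genes. With missing peaks filled in at the lowest value, the 5 lower members all lost their call (limma adjusted p of 0.0833 to 0.147) and 3 members were higher.

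The genes lower in quiescence were Pole2, Orc5, Tyms, Rfc4 and Cdc6. Pole2, an accessory subunit of the leading-strand polymerase, had 6.05 and 3.59 in the quiescent pair, 12.4 and 13.8 in the reactivated pair, and 7.03 and 5.85 in the activated pair. Its quiescent and reactivated pairs were far apart, with a log2 difference of -0.83 (SE 0.21, limma adjusted p = 0.0159). Orc5, another subunit of the origin recognition complex, had 7.89 and 7.26 in the quiescent pair, 18.0 and 19.0 in the reactivated pair, and 15.1 and 8.13 in the activated pair. The 2 activated libraries of Orc5 were far apart, and the quiescent-minus-reactivated difference was -0.62 (SE 0.20, adjusted p = 0.0378).

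Tyms, with the values given above, differed by -0.57 (SE 0.16, limma adjusted p = 0.0241). Rfc4, a subunit of the clamp loader, had 5.92 and 5.73 in the quiescent pair, 12.9 and 13.5 in the reactivated pair, and 8.92 and 6.27 in the activated pair (log2 -0.52, SE 0.15, adjusted p = 0.0272). Cdc6, an ATPase that loads the helicase with the origin recognition complex, had 7.95 and 7.87 in the quiescent pair, 15.6 and 18.5 in the reactivated pair, and 10.8 and 10.4 in the activated pair. Its quiescent pair was below both others, with a difference of -0.44 (SE 0.15, adjusted p = 0.0471).

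The 4 genes that were higher in quiescence after centring had fold enrichments close to those of reactivated cells before it. Orc4 had 16.1 and 18.3 in the quiescent pair, 17.0 and 18.6 in the reactivated pair, and 17.3 and 18.5 in the activated pair, and these ranges overlapped. Centring on the typical gene, whose value was higher in reactivated libraries, gave a log2 difference of 0.62 (SE 0.16, limma adjusted p = 0.0195). Rpa3 gave 0.57 (SE 0.14, adjusted p = 0.0149). Gins2, a subunit of the GINS complex, had 12.3 and 13.1 in the quiescent pair, 14.0 and 14.5 in the reactivated pair, and 14.0 and 12.4 in the activated pair, and gave 0.50 (SE 0.14, adjusted p = 0.0259). Mcm4 had 13.2 and 13.3 in the quiescent pair, 15.5 and 15.1 in the reactivated pair, and 13.6 and 14.2 in the activated pair, with a difference of 0.45 (SE 0.15) at the threshold.

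Without centring the differences of these 4 genes turned to -0.047 (Orc4), -0.092 (Rpa3), -0.17 (Gins2) and -0.21 (Mcm4), so their direction holds only relative to the typical promoter. No member was called without quiescent replicate 2, reactivated replicate 1 or reactivated replicate 2, and 4 were called without quiescent replicate 1. The share of all genes called fell as well, to 12.7%, 4.37%, 7.26% and 19.5% in the same order. Among the 46 other replication genes, 42 could be tested. Of these, Msh6 and the helicase gene Recql4 were lower in reactivated than activated cells, and 3 were lower and 6 higher in quiescent than reactivated cells.

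H3K4me3 was present at every replication promoter in both states. A broad H3K4me3 peak lay within 1 kb of a start of all 45 genes in quiescent and in activated cells, where 61.2% of coding genes had one in quiescent cells, 60% in activated cells and 59.9% in both, and it covered a start of the gene in all 45. All 46 other replication genes had one too. The fold enrichment over input had a median of 38.6 in quiescent and 38.3 in activated cells. It was 37.2 and 34.8 for all 16447 annotated genes with a peak in both, of which 13132 were protein-coding. There is 1 library per state, so no difference could be tested.

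No member was over 1.5-fold higher in quiescent cells (2.8% of all genes were) and 2 were over 1.5-fold lower (1.87%) after centring. Gins3, a subunit of the GINS complex, had 38.6 in quiescent and 61.7 in activated cells, and was 1.73-fold lower in quiescence after centring. Tk1 had 15.2 and 23.5 and was 1.67-fold lower after centring, and its quiescent value was the lowest of any member. Rrm2, whose ATAC-seq peak was lower in quiescence, had 38.6 and 40.4. The highest H3K4me3 was at Orc6, with 69.2 and 69.3, and the promoter there is shared with Vps35.

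**Figure D4:**
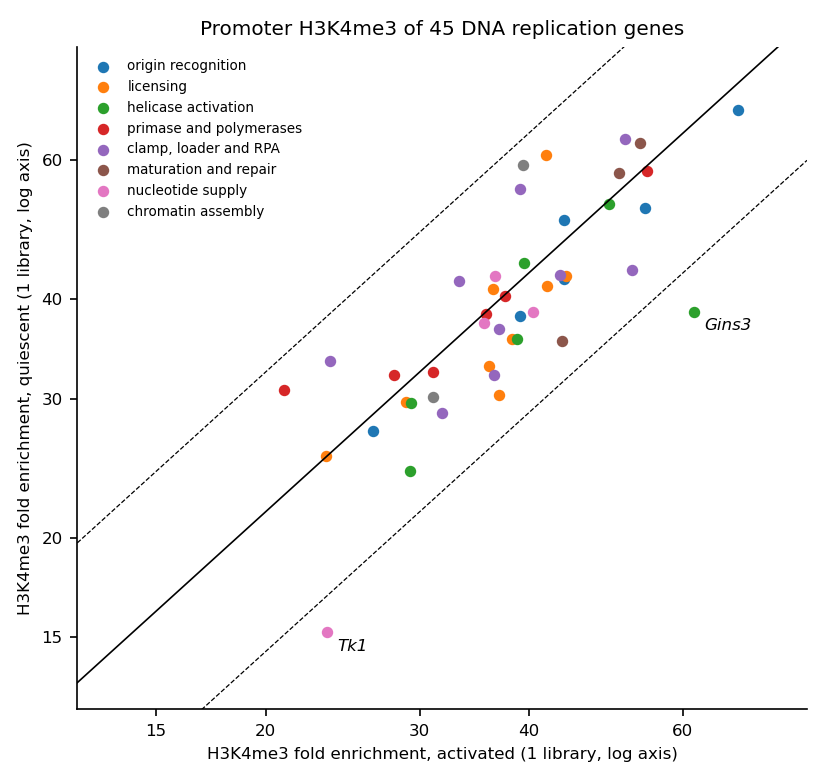
H3K4me3 fold enrichment at the promoters of 45 replication genes in activated (horizontal) and quiescent (vertical) NSPCs, both on log axes, 1 library a state and 1 point a gene, coloured by role; the solid line is the median ratio of all genes and the dashed lines are 1.5-fold from it. Gins3 and Tk1 lie below the lower dashed line and all other genes lie between the lines.

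The H3K4me3 domains of replication genes had a usual width, with a median of 2160 bp in quiescent and 2198 bp in activated cells, against 2084 and 1971 bp for the promoter peaks of coding genes. The widest was over Orc4, at 4553 and 3930 bp, and the narrowest was over Prim1 in quiescent cells, at 1117 bp. The highest ratios of quiescent to activated cells after centring were 1.39 at Chaf1b, 1.36 at Pole2 and 1.35 at Gmnn. Chaf1b, a subunit of the chromatin assembly factor that places histones on new DNA, had 59.0 against 39.4, and Gmnn had 60.9 against 41.8.

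Distal sites had lower fold enrichment than promoters. In all, 111 sites of the 55390 near coding genes lay near 37 of the 45 genes, with a median of 2 a gene, and none lay near Orc1, Orc2, Orc5, Orc6, Mcm7, Gins3, Gins4 and Prim1. By their middle, 63 were intronic, 15 exonic and 33 intergenic, and 9 overlapped an H3K4me3 peak. Their fold enrichment, averaged over the libraries with a peak, had a median of 3.62, against 11.6 for the promoters of members.

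Counting a site as open in a state when both of its libraries had a peak, 29 of the 111 sites were open in quiescent cells (25.1% of the 55390 distal sites of all coding genes), 14 in activated cells (21.4%) and 54 in reactivated cells (56.4%). In 12 sites all 3 states were open (13.3% of all), in 9 quiescent cells only (3.69%), in 1 activated cells only (0.518%) and in 33 reactivated cells only (27.9%). Quiescent and reactivated cells shared 8 sites (7.9%), activated and reactivated cells 1 (7.38%), and quiescent and activated cells none (0.24%). In the other 47 no state had a peak in both libraries (39.1%). With a -log10 q of at least 10, the sites open in quiescent cells only fell to 2. With lists of equal length, far fewer sites were open in reactivated cells, and in those alone. The counts also moved when single libraries were left out, as given in the last part. Shares of all distal sites under these settings are not given. Whether the changes are particular to replication genes was not tested.

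**Figure D5:**
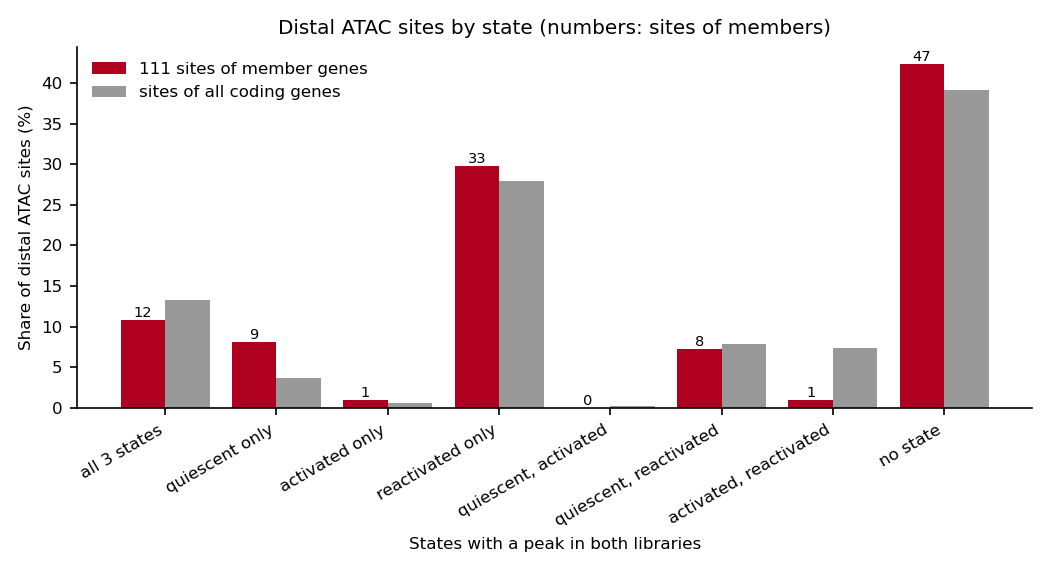
Share of distal ATAC-seq sites, in percent, by the states that had a peak in both libraries, for the 111 sites of replication genes (red, with the number of sites above) and for the 55390 sites of all coding genes (grey). Sites open in reactivated cells only and sites with no state open make up the largest shares in both sets.

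Prim2, a long gene, had the most distal sites, 12. Of these 6 were open in quiescent cells, 6 in reactivated cells and none in activated cells. The strongest, in an intron at chr1:33591071-33591512, had 5.52 and 4.97 in quiescent, 5.04 in activated replicate 1 only, and 10.3 and 12.1 in reactivated cells. A second intronic site at chr1:33494867-33495115 had 4.73 and 4.59 in quiescent, 4.38 in activated replicate 1, and 11.3 and 11.3 in reactivated cells. Another, at chr1:33647236-33647487 had 6.27 and 8.13 in quiescent, 3.85 in activated replicate 2, and 6.77 and 7.71 in reactivated cells. At each of the 3 sites 1 activated library had a peak as well, so the count of none rests on the rule of both libraries.

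Of the sites open in quiescent cells only, the highest means over the libraries with a peak were also in Prim2 introns, at chr1:33645669-33646027 with 3.85 and 3.35, and at chr1:33510795-33511020 with 3.55 and 2.52 and a peak of 4.52 in reactivated replicate 2. The next was beyond the end of Pole, the catalytic subunit of the leading-strand polymerase, at chr5:110338859-110339152, with 2.34 and 3.67 and a peak of 4.15 in reactivated replicate 2. The means of the second Prim2 site and the Pole site include the reactivated peak, and by the mean of the quiescent values alone a site in an exon of Fads1 near Fen1, at chr19:10195258-10195612 with 3.46 and 3.21, was higher than both. All of these were low peaks.

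The single site open in activated cells only lay in an intron of Rara near Cdc6, at chr11:98942162-98942439, with 2.16 and 2.36, and 3.25 in reactivated replicate 2. The single site shared by activated and reactivated cells lay in Sh3gl1, upstream of Chaf1a, at chr17:56030936-56031313. It had 3.04 and 3.42 in activated and 3.87 and 3.97 in reactivated cells.

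Of the sites open in reactivated cells only, the highest mean over the libraries with a peak was in an intron of Pole2 at chr12:69215101-69215302, with 5.14 and 6.87 and no peak in the other libraries. Higher values in reactivated cells were found at 2 sites whose means include weak peaks of other states. A site upstream of Rrm2 at chr12:24697142-24697405 had 8.65 and 7.31, with peaks of 3.90 in quiescent replicate 2 and 3.71 in activated replicate 1. A site in an intron of Rfc2, a clamp loader subunit, at chr5:134597445-134598146 had 8.31 and 7.18, with 2.67 and 3.71 in the same 2 libraries. A weak peak in 1 of the 2 libraries of each other state does not settle whether these 2 sites were open or closed there.

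The 12 sites open in all 6 libraries could be tested. For quiescent against activated cells 2 were higher in quiescence (8.8% of such sites) and none was lower (9.21%). The larger difference was at an intergenic site beyond Mcm5, a helicase subunit, at chr8:75134694-75135263, whose middle was 25409 bp from the Mcm5 start. The values were 5.57 and 8.24 in the quiescent pair, 3.31 and 2.40 in the activated pair, and 5.23 and 4.32 in the reactivated pair. The quiescent values lay above all others, with a log2 difference from activated cells of 1.49 (limma adjusted p = 0.00205). This call held without each of the 5 libraries that could be left out with the site unchanged, at 1.16 to 1.85.

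The other was in an intron of Fads1 near Fen1, the flap endonuclease that trims Okazaki fragments, at chr19:10188229-10188894. It had 7.57 and 8.67 in the quiescent pair, 6.02 and 5.72 in the activated pair, and 7.89 and 9.43 in the reactivated pair. The activated pair was the lowest (log2 0.69, limma adjusted p = 0.0335), and the call was lost without centring (0.47, adjusted p = 0.162) and without quiescent replicate 1 (0.87, adjusted p = 0.0578), quiescent replicate 2 (0.54, 0.184), activated replicate 1 (0.58, 0.150) or activated replicate 2 (0.75, 0.0769).

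A site in an intron of Rrm2, at chr12:24710180-24710463, had 4.56 and 4.51 in the quiescent pair, 5.15 and 4.14 in the activated pair, and 3.59 and 3.91 in the reactivated pair. It was lower in reactivated than activated cells (log2 -0.95, limma adjusted p = 0.00849), where 9.07% of such sites were lower and 9.33% higher, and higher in quiescent than reactivated cells (log2 1.15, adjusted p = 0.00132). Neither call held without centring, where the differences were -0.30 (adjusted p = 0.213) and 0.27 (0.232). Its difference between quiescent and activated cells was 0.20 (SE 0.17). Together with both sites named above and a second site upstream of Mcm5 (chr8:75089328-75089852), 4 of the 12 sites were higher in quiescent than reactivated cells, against 18.4% of such sites, and none was lower (16.2%). Without centring the differences of the Fen1 site and the second Mcm5 site turned to -0.091 and -0.23, and that of the first Mcm5 site was 0.51 (adjusted p = 0.0790).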

How the data were processed

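ATAC-seq and H3K4me3 ChIP-seq peak lists were used as deposited. Per the submitters' processing notes and the methods, the authors trimmed reads with Trim Galore 0.4.0, aligned them to mm10 with Bowtie2 2.2.5, removed duplicates with Picard 1.88 and SAMtools 1.3.1, and called ATAC-seq peaks per library with MACS2 at an FDR of 0.05. H3K4me3 peaks were called as broad peaks over input; the tool versions are those given for ATAC-seq. The deposited columns hold the ratio of pileup to background (fold enrichment), which is not scaled between libraries, a -log10 p-value, a -log10 q-value and a score of 10 times the -log10 q-value, which was not used. No reads or library sizes were used here, so depth is given only as background pileup, recovered from the fold enrichment and p-value.

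For each gene the highest fold enrichment within 1 kb of a GENCODE M21 start was taken. Log2 values were centred on the library median over the 14463 genes with a promoter peak in all 6 ATAC-seq libraries and tested with limma 3.58.1 (R 4.3.3; 2-sided, state as the only term, Benjamini-Hochberg over all genes, threshold 0.05). The 3 states shared 1 estimate of spread. Peaks of all libraries that touched were merged into sites and tested likewise. H3K4me3 had no test. Genes with full values were those without a peak in some library, those called, the 3 largest differences of each comparison, the 3 highest and lowest percentiles and the 3 strongest distal sites of each pattern. The scripts (Python 3.11.15) were tested on simulated data. The genes and gene lists were chosen with earlier results of these data known. Files of the input libraries were not analysed here. Alternatives covered centring, windows, thresholds, list lengths, a replicate block and leaving out each library. A few genes outside the 45 are not reported here.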

Additional observations from a re-analysis of the deposited data

How the results depend on the processing

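The presence of promoter peaks held in every alternative tried (42 to 45 of 45 genes a state), as did the H3K4me3 counts. Calls depended on the settings; the causes were not tested. Members called for quiescent against activated cells fell from 1 to 0 with quantile normalization, percentiles, missing peaks filled in or the 4 libraries of both states alone (1.58%, 0.353%, 4.06% and 1.40% of all genes called), and to 0 without each library in turn (0.518% to 1.51%); the median without centring was -0.12, and 0.02 to 0.05 without a library. For reactivated against activated cells the 1 call became 23 without centring (median 0.50), 5 with quantile normalization, 0 with percentiles or filled peaks, 3 with a -log10 q of at least 10 or 4 libraries, and 0 to 4 without a library (medians -0.05 to 0.06), while the share of all genes called was 47.6%, 17.3%, 4.70% with percentiles, 14.5% with filled peaks, 13.3%, 13.1% and 0.0622% to 13.7%. For quiescent against reactivated cells the 9 calls became 29 without centring (median -0.60), 0 with percentiles, 3 with filled peaks (0 lower, 3 higher) and 0 to 11 without a library (medians -0.02 to 0.12), against 65.1%, 5.79%, 23.3% and 4.37% to 30.8% of all genes.

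Without centring, Orc4 (-0.047), Rpa3 (-0.092), Gins2 (-0.17), Mcm4 (-0.21), the second Mcm5 site (-0.23) and the Fen1 site (-0.091) reversed for quiescent against reactivated cells. Equal replicate numbers did not deviate together (correlations across genes of 0.0027, 0.027 and -0.024 between pairs of states), so the numbers are not taken to pair the libraries. With a replicate block the calls were 1, 2 and 7 in the order above, where 2.63%, 12.1% and 26.6% of all genes were called. Rrm2 joined Prim2 in the second (log2 -0.55, limma adjusted p = 0.0407). Cdc6 and Mcm4 lost their call in the third (limma adjusted p of 0.0513 and 0.0597). The member sites called stayed 2, 1 and 4, against 10.7%, 15.6% and 33.0% of all sites tested.

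Of the 111 distal sites, 71 lay within 10 kb and 42 in gene bodies, 52 remained with a -log10 q of at least 10 and 59 with lists of equal length, and 98 to 110 without a library. Within 10 kb, 8 sites were open in activated cells, none in these alone. In gene bodies the sites open in quiescent, activated and reactivated cells numbered 11, 3 and 25 (alone 3, 0 and 17), and with a -log10 q of at least 10 they numbered 11, 5 and 31 (quiescent alone 2, activated alone 0). With lists of equal length 14 were open in reactivated cells, 3 of them alone, and 0 in activated cells alone. Without a library these ranged from 29 to 44, 14 to 31 and 54 to 73 (alone 7 to 22, 0 to 6 and 25 to 50). Member sites called became 1, 6 and 7 without centring, 1 for quiescent against activated cells with a -log10 q of at least 10, and 1 to 2, 0 to 1 and 2 to 5 without a library. Of all sites tested, 11.4%, 49.9% and 66.3% were called without centring, against 11.0%, 16.6% and 33.6% in the main fit. With a -log10 q of at least 10 the first share was 6.11%. In a window starting 100 bases before the start, 0 promoters held the TATA word. Its background shares were 6.94% of all RefSeq promoters and 2.38% of those open in all 6 libraries. E2F words were in 11 there (29.7%, against 1.27% and 2.34%) and the CCAAT box in 19 (51.4%, against 23.4% and 28.1%). Some sites changed outline when a library or weak peaks were left out and gave no value there. For the counts of open sites, shares of all distal sites under these settings are not given. With 2 libraries a state, a lone library was assumed to vary like the others.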
